A study of Mus musculus with 5 samples.

Results

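The genes of the NCoR-HDAC3 corepressor and of the related SIN3-HDAC complex were examined for Nr1d1 binding in mouse Th1 cells. They were chosen by name, as the 8 genes Ncor1, Hdac3, Tbl1x, Tbl1xr1, Gps2, Sin3a, Hdac1 and Hdac2, out of 21887 protein-coding genes in the RefSeq annotation of GRCm38.p6, the mm10 build. The mice were C57BL/6, wild-type and 4 to 6 weeks old, and their naive CD4 T cells had been cultured with anti-CD3, anti-CD28, IL-12, IFNγ and anti-IL4 for 3 to 4 days. All 5 libraries (3 of Nr1d1 ChIP, 1 of an IgG mock pull-down and 1 of input DNA) shared this genotype and culture, and the labels do not say whether the 3 ChIP libraries came from separate mice. The assay gives binding and no RNA level, so the Th1 label could not be checked against marker genes.

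The authors deposited 1 list of peaks for each antibody, called over the input, with 19586 peaks for Nr1d1 and 17111 for IgG. The 14471 Nr1d1 peaks that overlap no IgG peak are called ChIP-specific here. A peak came with its length, its false discovery rate (FDR), its class, and the gene with the nearest transcription start site (TSS). There is no value per library and no read count, so nothing below has a replicate error or a p-value, and the depth behind a peak is unknown. Each peak's FDR and length are the authors' own values and were used only to place a peak within its list.

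Nr1d1, also known as REV-ERBα, is a heme-binding nuclear receptor that lacks the helix that recruits coactivators and silences its targets by recruiting NCoR. NCoR1 is the scaffold of that complex. It binds the receptor and holds and activates HDAC3, which removes acetyl groups from histone tails. TBL1X and TBL1XR1 are WD40-repeat subunits that contact histones and the ubiquitin system, and GPS2 is a small subunit bound to both. SIN3A is the scaffold of a separate corepressor complex whose catalytic subunits are HDAC1 and HDAC2. The genes examined here encode the machinery with which Nr1d1 works, and the question was where Nr1d1 peaks lie around them.

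Of these 8 genes, 2 were the nearest gene of a ChIP-specific peak, Tbl1xr1 and Hdac2, and each had 1 such peak. Among all protein-coding genes the share was 17.5%, so 2 of 8 lay near the background. With Nr1d1 peaks over IgG included, the same 2 genes had a peak, against 22.0% of all genes. They then held 4 peaks, of which 3 belonged to Tbl1xr1. An IgG peak was nearest to 1 gene, Tbl1xr1, with 2 peaks, against 17.0% of all genes. Ncor1, Hdac3, Tbl1x, Gps2, Sin3a and Hdac1 were the nearest gene of no peak in any of the 3 annotation tables.

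**Figure D1:**
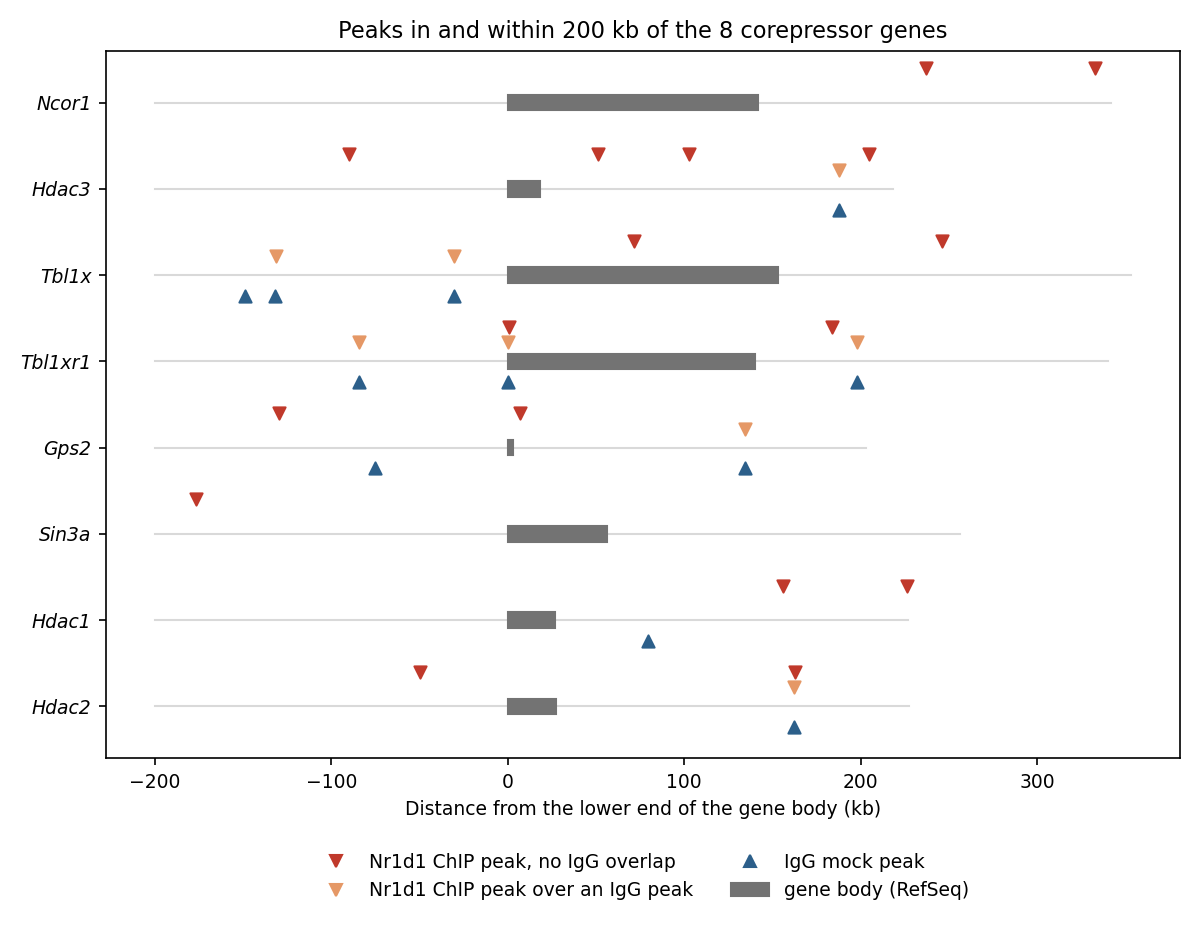
Map of the 8 genes, each drawn from the lower end of its RefSeq body (grey bar) with 200 kb on either side, on a scale in kb. Triangles above a line are Nr1d1 peaks, red without and orange with an IgG overlap, and blue triangles below are IgG peaks. Markers are larger than peaks. Only Tbl1x and Tbl1xr1 have a peak inside the body, and the row of Sin3a holds 1 peak in all.

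Ncor1, the scaffold that bridges the receptor to HDAC3, is a gene of 141752 bp on chromosome 11 (62315663 to 62457414). Its body held no Nr1d1 and no IgG peak. The nearest ChIP-specific peak lay 95312 bp beyond the higher end of the gene (62552726 to 62553024, length 300 bp, FDR 0.00837). It was annotated to the termination site of Ubb, a polyubiquitin gene, and 3 protein-coding genes overlapped the interval between. The next lay 191062 bp away at the promoter of Mmgt2. The nearest IgG peak was 288712 bp from Ncor1. Of all protein-coding genes, 48.4% lay at least as far from a ChIP-specific peak as Ncor1 did, so its distance was close to the middle of the genome's genes.

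Hdac3, which encodes the deacetylase of the complex, spans 18045 bp on chromosome 18 (37936971 to 37955015) and likewise held no peak. It had the most ChIP-specific peaks within 200 kb among the 8 genes, 4 of them. The nearest was 33086 bp away (37988101 to 37988224, length 125 bp, FDR 0.0173), in an intron and assigned to the microRNA gene Mir6980. A further one at 84486 bp was assigned to Arap3, one at 90122 bp on the other side to Diap1, and one at 186661 bp to Pcdh1. Pcdh1, a protocadherin gene, was also nearest to the 1 Nr1d1 peak over an IgG peak there, 169436 bp from Hdac3. That peak had the same bounds in both lists (38124451 to 38124674).

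Tbl1xr1 had the most peaks by the authors' assignment, and most of them coincided with IgG. The gene covers 140342 bp on chromosome 3 (22076253 to 22216594). Its promoter peak in the Nr1d1 list (22076051 to 22076174, length 125 bp, FDR 0.0214, 540 bp upstream of the TSS) shared 99 bp with an IgG promoter peak (22076076 to 22076224, length 150 bp, FDR 0.0215). An intergenic Nr1d1 peak 84865 bp upstream (21991676 to 21991899, length 225 bp, FDR 0.00749) wholly contained an IgG peak of length 100 bp (21991726 to 21991824, FDR 0.0195). The promoter peak was thus the shorter of its pair, while the distal Nr1d1 peak was the longer.

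The ChIP-specific peak of Tbl1xr1 lay in an intron 560 bp downstream of the TSS (22077151 to 22077274, length 125 bp, FDR 0.019). In the ChIP-specific list, 61.1% of peaks had a lower FDR and 75.6% were longer. It began 927 bp beyond the end of the IgG promoter peak. Of all ChIP-specific peaks, 2.93% (Wilson 95% interval 2.67 to 3.22, for counting of peaks only) lay within 1 kb of an IgG peak. ChIP-specific intron peaks within 1 kb of a TSS were 4.36% (3.8 to 5.0) of the intron peaks in that list. The only ChIP-specific peak assigned to Tbl1xr1 was therefore a short one of moderate FDR beside an IgG site, and what part the IgG signal has in it was not tested.

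**Figure D2:**
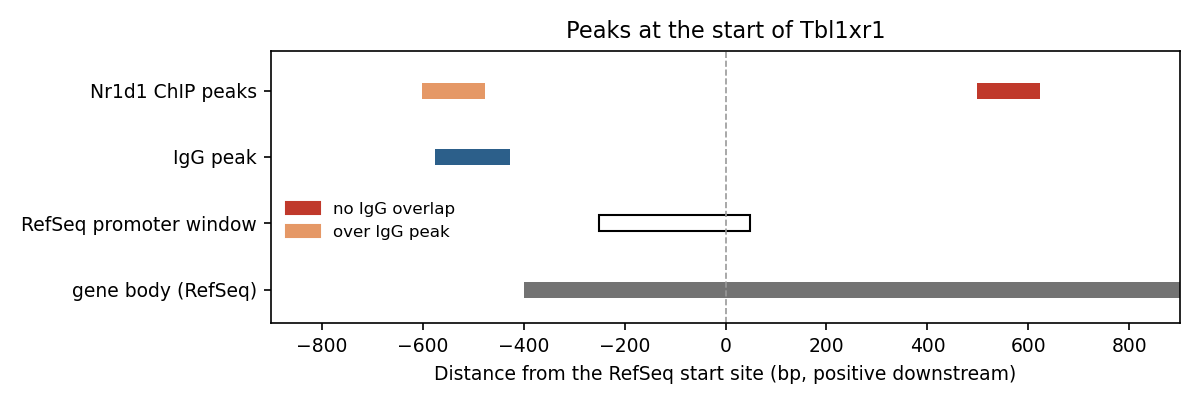
Start of Tbl1xr1, with distance from the RefSeq start site in bp, positive downstream. Bars show peaks to scale: the Nr1d1 peak from 601 to 478 bp upstream overlaps the IgG peak from 576 to 428 bp upstream, and the ChIP-specific peak lies 499 to 622 bp downstream. The open box is the 300 bp RefSeq promoter window printed in the text, which no peak touches. The RefSeq gene body begins upstream of the start site used here, and the promoter peaks lie before that body.

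Across the whole Nr1d1 list, 36.0% of promoter peaks (33.4 to 38.7) and 25.1% of intergenic peaks (24.3 to 25.9) overlapped an IgG peak, against 26.1% of all Nr1d1 peaks. Both such peaks of Tbl1xr1 were on that side. At least 3 Nr1d1 peaks were assigned to 4.03% of protein-coding genes, and 4.43% had ChIP-specific as well as IgG-overlapping ones, as Tbl1xr1 did. Of the genes with any Nr1d1 peak these were 18.3% and 20.2%. Within 200 kb of the gene there were a further ChIP-specific peak, 43582 bp past the higher end (length 100 bp, FDR 0.0353), and a further Nr1d1 peak over IgG at 57132 bp (length 350 bp, FDR printed as 0). Both were assigned to Rprl2, an RNase P RNA gene.

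The RefSeq promoter window of Tbl1xr1 is shown because it separates these peaks, starting 228 bp after the Nr1d1 promoter peak and ending 450 bp before the intron peak. It runs over chr3:22076402-22076701 on the plus strand of GRCm38.p6, from 250 bases before to 50 bases after the start, and is made up of C-rich runs with a GC content of 76.3%.
Tbl1xr1: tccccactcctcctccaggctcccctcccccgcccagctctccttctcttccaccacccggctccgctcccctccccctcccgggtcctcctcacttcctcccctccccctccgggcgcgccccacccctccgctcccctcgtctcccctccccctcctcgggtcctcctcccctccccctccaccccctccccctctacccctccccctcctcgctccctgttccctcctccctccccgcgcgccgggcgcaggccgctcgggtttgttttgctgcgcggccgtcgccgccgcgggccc

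Motifs tied to Nr1d1 or to the clock were searched on both strands: the core hexamer AGGTCA, the RevDR2 element (this hexamer repeated after 2 unspecified bases), the longer RORE consensus, in which an A/T-rich stretch precedes a GGTCA core, and the E-box CACGTG. A RevDR2 always contains the hexamer, and a RORE does so in one of its spellings. Windows were found for 6 of the 8 genes, 8 windows in all (for Hdac1 and Hdac3 none was used). None of the 8 held any of these letters, and none was touched by a Nr1d1 or IgG peak. The window of Tbl1xr1 lies wholly inside the RefSeq body, which begins at 22076253. The promoter peaks of this gene lie before that body, so the letters under them were not searched. Over all 32851 RefSeq windows, 16.3% held the hexamer, 0.00913% RevDR2, 0.384% the RORE and 7.15% the E-box, while 1.27% overlapped a ChIP-specific and 1.75% an IgG peak.

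Tbl1x, the X-linked paralogue of Tbl1xr1, had a ChIP-specific peak deep inside the gene that the authors' assignment gave to another. The body spans 153174 bp (X, 77509549 to 77662722). The peak (77581026 to 77581174, length 150 bp, FDR 0.0327) lay 71477 bp from the lower and 81548 bp from the higher end. It was classed as intronic and assigned to Gm23121, whose start was 1613 bp away. In the Nr1d1 list 88.3% of peaks had a lower FDR, which puts it among the weaker ones. The strongest peak around Tbl1x was outside the gene and coincided with IgG. At 30050 bp below the gene lay a Nr1d1 peak of length 350 bp with an FDR printed as 0 (77479151 to 77479499), over an IgG peak of length 275 bp, also with an FDR printed as 0. Gene bodies on X held 0.98 ChIP-specific and 1.18 IgG peaks per 100 kb, against 0.522 and 0.579 in autosomal bodies.

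Of the 6 genes with no peak inside the body, Gps2 had the shortest gap to one. It is the shortest of the 8, with 3077 bp on chromosome 11 (69913980 to 69917056), and 84.2% of protein-coding genes are longer. A ChIP-specific peak lay 3920 bp beyond its higher end (69920976 to 69921199, length 225 bp, FDR 0.0163), and 63.0% of Nr1d1 peaks had a lower FDR. It was annotated to the promoter of Eif5a, a translation factor gene, centred 2 bp upstream of that TSS. The RefSeq bodies of both genes meet tail to tail, that of Eif5a (69916712 to 69921958) sharing 345 bp with Gps2, so the peak stood at the far end of the neighbour. Eif5a was named here after its values were seen. No IgG peak lay closer to Gps2 than 75281 bp, where one marked the promoter of Tmem256.

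Of the RefSeq windows of Eif5a, 2 overlapped this peak, and the one that covers more of it is printed here. It is shown as a ChIP-specific peak within 5 kb of a corepressor gene for which sequence was at hand. The window is chr11:69920898-69921197 on the minus strand of GRCm38.p6, and capitals mark the 222 of its bases, of 224 in the peak, that lie under the peak.
Eif5a: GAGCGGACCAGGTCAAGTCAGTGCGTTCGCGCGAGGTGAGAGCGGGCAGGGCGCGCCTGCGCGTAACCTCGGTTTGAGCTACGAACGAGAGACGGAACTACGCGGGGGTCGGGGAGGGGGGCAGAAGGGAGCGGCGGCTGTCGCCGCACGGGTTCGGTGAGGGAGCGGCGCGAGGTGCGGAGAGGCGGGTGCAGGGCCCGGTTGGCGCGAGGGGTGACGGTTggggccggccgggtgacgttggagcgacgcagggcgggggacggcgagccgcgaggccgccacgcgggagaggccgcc

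Within these capitals stands 1 AGGTCA hexamer, at bases 10 to 15 of the window counted from its 5′ end (69921183 to 69921188). Among windows that overlap a ChIP-specific peak, 39 of 417 (9.35%) held the hexamer, and among those over an IgG peak 53 of 575 (9.22%), both lower than the 16.3% of all windows. The match is a description of letters only.

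Sin3a, the scaffold of the SIN3 complex, lay farthest from any peak. The gene covers 56378 bp on chromosome 9 (57071991 to 57128368). Its nearest Nr1d1 peak was ChIP-specific and 176592 bp away, in an intron and assigned to Cspg4 (56895176 to 56895399, length 225 bp, FDR 0.0192). The nearest IgG peak was 1359758 bp away, and 0.763% of protein-coding genes lay at least that far from one. For ChIP-specific peaks the corresponding share was 30.9%, which is not unusual.

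Hdac1 and Hdac2, paralogous deacetylases of the SIN3, NuRD and CoREST complexes, differed in their surroundings. Hdac1 (chromosome 4, 129516104 to 129542646) was nearest to no peak. The closest ChIP-specific peak was 129630 bp from it, over an intron at the start of Kpna6, and 9 protein-coding genes overlapped the interval between. An IgG peak in an exon of Eif3i was closer, at 52630 bp. Hdac1 was the only one of the 8 genes with an IgG peak closer than its nearest ChIP-specific peak.

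Hdac2 (chromosome 10, 36974297 to 37001889) was assigned an intergenic ChIP-specific peak 49819 bp upstream of its TSS (36924601 to 36924849, length 250 bp, FDR 0.00928). No protein-coding gene lay between them. The peak was the stronger of the pair of ChIP-specific peaks assigned to corepressor genes: 22.5% of ChIP-specific peaks had a lower FDR, 472 had the same one and 18.8% were longer. Of intergenic ChIP-specific peaks, 49.1% (48.0 to 50.1) lay within 50 kb of a TSS, so its distance was near the middle of its class. On the other side of Hdac2, Marcks held a Nr1d1 peak over IgG and a ChIP-specific one, at 134312 and 135037 bp.

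**Figure D3:**
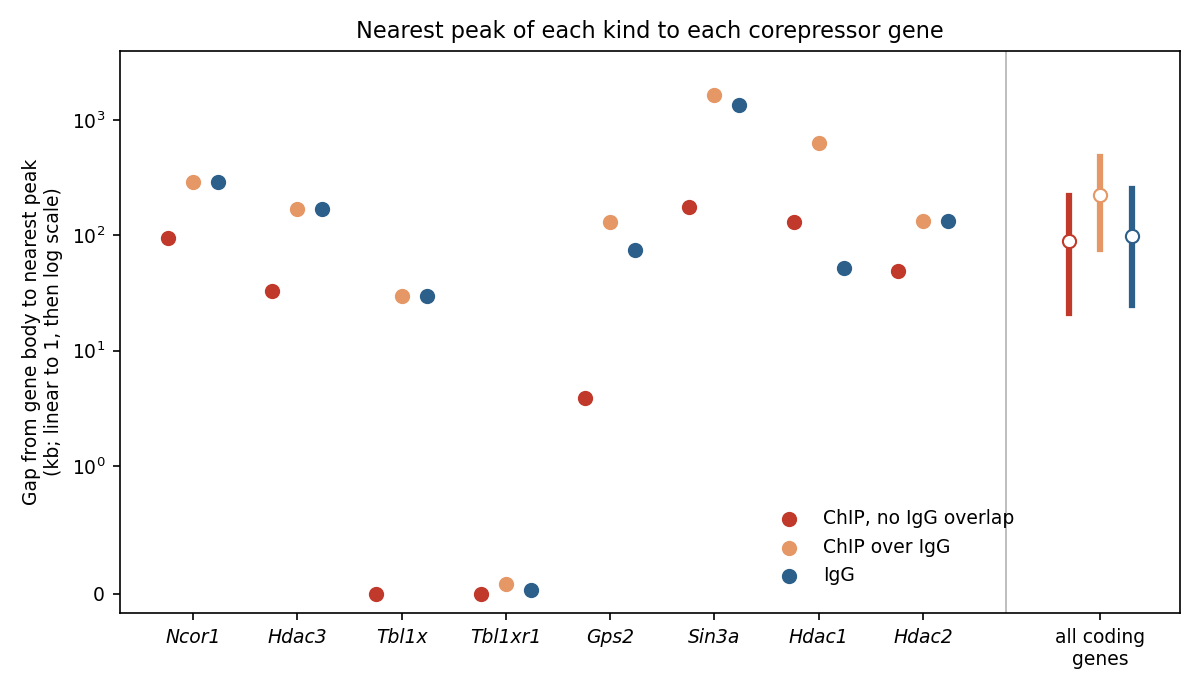
Gap in kb from each gene body to the nearest peak of each kind, on an axis that is linear up to 1 kb and logarithmic above, with a gap of 0 for a peak inside the body. At the right, open circles and bars give the median and the interquartile range over all 21887 protein-coding genes. Tbl1x and Tbl1xr1 have a gap of 0 to a ChIP-specific peak, and Sin3a is 1360 kb from an IgG peak.

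Taking the 8 genes as a group, the median gap to a ChIP-specific peak was 41.3 kb, against 89.7 kb over all protein-coding genes (interquartile range 21.2 to 219 kb). To an IgG peak it was 105 kb, against 99.5 kb. The corepressor genes were longer than most, with a median body of 42.0 kb against 17.2 kb, and the part that body length has in the gaps was not tested. Their bodies held 2 ChIP-specific and 0 IgG peaks in 567 kb, with 1 IgG peak ending 29 bp before the body of Tbl1xr1. At the density of all protein-coding bodies (0.542 and 0.605 per 100 kb) the same length would hold 3.07 and 3.43. The counts are small, and their difference from that background was not tested. Within 200 kb of the bodies were 17 ChIP-specific peaks (1 to 4 per gene, median 2.0, against 1.0 over all genes), 8 Nr1d1 peaks over IgG (median 1.0 against 0.0) and 11 IgG peaks (median 1.0 against 1.0).

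How many genes count depended on the rule of assignment. With a ChIP-specific peak in the body or within 5 kb, 3 of the 8 counted (Tbl1x, Tbl1xr1 and Gps2), against 16.8% of all genes. Hdac2 was lost by this rule. Within 50 kb there were 5, with Hdac2 and Hdac3 added, against 37.2%. For IgG the numbers were 1 (15.9% of all genes) and 2 (35.0%), Tbl1xr1 and then Tbl1x. Inside the body alone, 2 had a ChIP-specific peak against 13.7% and 0 an IgG peak against 13.1%. The IgG promoter peak of Tbl1xr1 ended 29 bp before its RefSeq body, and the Nr1d1 peak that overlaps it 79 bp before. Ncor1, Sin3a and Hdac1 had no ChIP-specific peak within 50 kb.

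**Figure D4:**
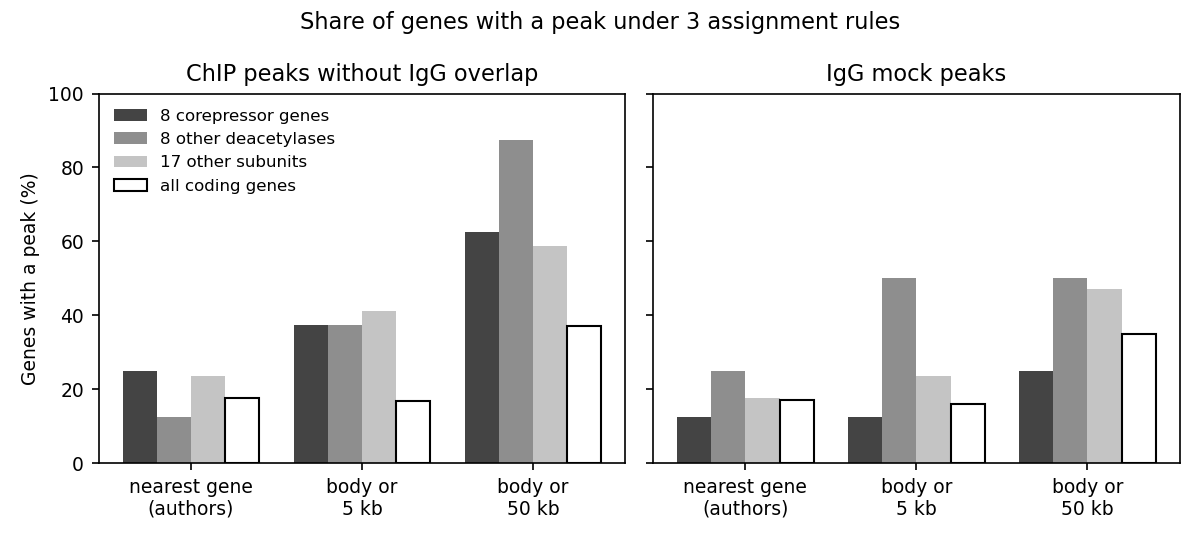
Percent of genes with a ChIP-specific (left) or an IgG peak (right) under 3 rules of assignment, for the 8 corepressor genes, 8 other deacetylases, 17 other corepressor subunits and all protein-coding genes (open bars). Groups of 8 move in steps of 12.5%. The deacetylases reach 87.5% (7 of 8) for ChIP-specific peaks within 50 kb, against 37.2% of all genes. For IgG peaks under the same rule the count is 4 of 8, against 35.0%. Within 50 kb, Hdac4, Hdac6, Hdac8 and Hdac9 count for both kinds of peak. Hdac4, Hdac8 and Hdac9 have long bodies, of 220744 to 869516 bp, while that of Hdac6 is 17932 bp. The part that body length has in these shares was not tested.

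Other enzymes and subunits of this machinery were examined in the same way. Of 8 further histone deacetylase genes (Hdac4 to Hdac11), ChIP-specific peaks were assigned to 1 and IgG peaks to 2, which for so few genes is near the 17.5% and 17.0% of all protein-coding genes. Hdac8, a class I enzyme like the 3 described above, had an intronic ChIP-specific peak 18366 bp downstream of its TSS (X, 102486301 to 102486449, FDR 0.00928). A second Nr1d1 peak, deeper in the gene at 102254 bp, shared 274 bp with an IgG peak with an FDR printed as 0. A further ChIP-specific peak inside Hdac8 (102354251 to 102354499, FDR 0.0246) was assigned to Gm26318. Hdac4, a class IIa enzyme that binds NCoR-HDAC3, was by the authors' assignment nearest to a pair of IgG peaks and no Nr1d1 peak. Its body nevertheless held an intronic ChIP-specific peak (chromosome 1, 92052651 to 92052949, FDR 0.00872), assigned to RP23-309A8.3. The IgG peaks of Hdac4 had FDRs of 0.0108 and 0.0357.

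Of 17 other subunits of the SIN3, NuRD and CoREST complexes, 4 were nearest to a ChIP-specific peak (Ing1, Ing2, Rbbp7 and Rcor1) and 3 to an IgG peak (Gatad2a, Mta1 and Rcor1). By the authors' assignment these shares, 23.5% and 17.6%, were near the 17.5% and 17.0% of all protein-coding genes. With peaks in the body or within 5 kb the shares were 41.2% (ChIP-specific) and 23.5% (IgG), against 16.8% and 15.9%. Within 50 kb they were 58.8% and 47.1%, against 37.2% and 35.0%. These differences were not tested. Rbbp7, a histone chaperone that accompanies HDAC1 and HDAC2, had a ChIP-specific promoter peak 290 bp upstream of its TSS (X, 162760001 to 162760224, length 225 bp, FDR 0.00597). A second one assigned to it (162791801 to 162792074) was classed as intronic, 17359 bp downstream of the start of another transcript. It lay past the higher end of the RefSeq body of Rbbp7 (162779090), which held no ChIP-specific peak. The promoter peak stood near the top of its list, with 5.49% of ChIP-specific peaks at a lower FDR. Ing1, a reader of histone methylation in the SIN3 complex, had 1 peak over an exon and 1 in an intron. The exon peak of Ing1 (chromosome 8, 11556526 to 11556874, FDR 0.0119) lay 634 bp downstream of the annotated TSS. Ing2, its paralogue, had a promoter peak 531 bp upstream (47676026 to 47676149, FDR 0.0132) and an intergenic one. Rcor1, the CoREST scaffold, resembled Tbl1xr1: its promoter peak had the same bounds in the Nr1d1 and IgG lists (chromosome 12, 111039651 to 111039849), and its ChIP-specific peak was intronic, 9489 bp downstream. Both Nr1d1 peaks of Mta1 and the one assigned to Gatad2a lay over IgG peaks.

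The Rbbp7 promoter is printed as a case among these genes where a ChIP-specific peak reaches into a RefSeq window, chrX:162760122-162760421 on the plus strand of GRCm38.p6. Capitals mark the 103 bases under the peak, and none of the searched motifs was in the window.
Rbbp7: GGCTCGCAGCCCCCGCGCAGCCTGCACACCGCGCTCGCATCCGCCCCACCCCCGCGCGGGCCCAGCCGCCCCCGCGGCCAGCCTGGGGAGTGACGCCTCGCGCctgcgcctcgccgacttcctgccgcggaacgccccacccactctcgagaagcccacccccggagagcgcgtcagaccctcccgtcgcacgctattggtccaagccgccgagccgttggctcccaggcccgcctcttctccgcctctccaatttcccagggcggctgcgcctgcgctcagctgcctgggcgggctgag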

How the data were processed

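Libraries were grouped by title, because every antibody label names Nr1d1, the mock and input ones too. The submitters' processing notes name BWA, HOMER and mm10 and no version. Which program called peaks, and whether the 3 ChIP libraries were merged, is not given in the sources used here. For each peak the authors deposited an FDR, a q-value printed to 6 decimals and under 0.05 throughout, and a length in bp. Per the file headers, the annotation tables give a score, which equalled the deposited length for every annotated peak, a class, the nearest TSS and its gene. Lengths were multiples of 25 bp. Of the peaks 2 ChIP-specific and 1 IgG had no annotation.

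Gene rows were found by symbol, with older symbols replaced through RefSeq. Of 12195 gene names in the tables, 8983 were current RefSeq symbols and 413 older ones. Gaps run from the RefSeq gene body to the peak, and an overlap of 1 bp or more is a gap of 0. The gap code (Python 3.11.15, numpy 2.4.6, pandas 2.3.3, scipy 1.17.1, figures in matplotlib 3.10.9) was tested on 2000 simulated intervals and recovered all 2000. Sequences are from RefSeq, GRCm38.p6. Intervals are Wilson intervals at 95%.

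The genes and the lists of related genes were chosen with earlier results of these data known. Named were all 8 genes, the related genes nearest to a ChIP-specific peak, and the genes given a peak inside a corepressor gene. Further names were chosen after values were seen. 1 gene of the related list is not reported here. No test was run.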

Additional observations from a re-analysis of the deposited data

How the results depend on the processing

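The 2 genes nearest to a ChIP-specific peak were unchanged in number with all Nr1d1 peaks (22.0% of all protein-coding genes). The number was also unchanged with peaks within 100 kb of the TSS, a limit for which no share of all genes was computed. The count was 5 with peaks in the body or within 50 kb. It was 1 with an FDR under 0.01 and 1 when no IgG peak was allowed within 1 kb (17.2% of all protein-coding genes), with Hdac2 the gene left each time. For IgG the count of 1 became 2 within 50 kb, 2 by the nearest protein-coding gene body (23.5% of all protein-coding genes), and 0 with an FDR under 0.01. The rule of the nearest body was chosen after seeing the data and gave 3 for ChIP-specific peaks, with Tbl1x added, against 24.1% of all protein-coding genes. With an FDR under 0.01 the peaks assigned to these genes fell from 4 to 2 in the Nr1d1 list, from 2 to 1 in the ChIP-specific list and from 2 to 0 in the IgG list. The share of all protein-coding genes moved from 17.5% to 7.67% (ChIP-specific) and from 17.0% to 12.0% (IgG) under it, and to 16.8% and 15.9% with peaks in the body or within 5 kb. No library could be left out, since libraries have no lists of their own. No paired analysis was possible because no result comes from a test. Peaks have no read count, so how far depth limits the genes without a peak is unknown: no peak was called there, which does not show that Nr1d1 is absent.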

Other observations

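Hdac9, a class IIa deacetylase gene of 869516 bp on chromosome 12, was the nearest gene of no peak in the authors' tables, while its RefSeq body held 5 Nr1d1 and 3 IgG peaks. The density over all protein-coding bodies gives 6.52 and 5.26 for that length, so the numbers are no higher than the background. All 8 were classed as intergenic and given to Gm18025 or 4921508M14Rik. Of the 5 Nr1d1 peaks, 3 were ChIP-specific.

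Peaks inside a gene were often given to a gene whose body does not hold them. Of the 5537 annotated ChIP-specific peaks inside a RefSeq protein-coding body, 1996 (36.0%, Wilson 95% interval 34.8 to 37.3) were, as the peak in Tbl1x was, and of 6210 IgG peaks 2288 (36.8%, 35.7 to 38.1). Among the other deacetylases it was 5 of 6 ChIP-specific peaks, in Hdac4, Hdac8 and Hdac9, and among the other subunits 2 of 5, in Suds3 (given to 9530046B11Rik) and Gatad2a (given to Yjefn3). Sin3b held an IgG peak of length 250 bp with an FDR printed as 0 in an exon, given to F2rl3, and no Nr1d1 peak.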
